A study of Homo sapiens with 7 samples.

Results

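Ribosomal protein genes encode the proteins that, with ribosomal RNA, build the large (RPL) and small (RPS) subunits of the cytosolic ribosome. The set described here held 40 of them, 25 RPL and 15 RPS genes, out of 19970 protein-coding genes on chromosomes 1 to 22 and X. They were taken from a named list, and for each the called 5-hydroxymethylcytosine (5hmC) peaks overlapping its RefSeq gene body or the 5 kb on either side (the window) were collected. 5hmC is the oxidised form of 5-methylcytosine made by TET enzymes. It was captured by hMe-Seal, in which a glucosyltransferase attaches an azide sugar to 5hmC, biotin is clicked on, and the biotinylated fragments are pulled down and sequenced.

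The cells were SH-SY5Y, an established human neuroblastoma line used as a neuron-like model. The shNC group carried a control shRNA and the shTDP43 group an shRNA against TDP-43 (gene TARDBP), which binds RNA and DNA and regulates splicing. Both hairpins were delivered in a lentiviral vector with a U6 promoter. The protocol, which words the selection for the knockdown cells, gives puromycin at 2 µg/mL for 2 weeks and then 1 µg/mL. Each group had 3 libraries. The labels do not say whether these came from separate cultures, or whether the lines were clones or pools, so each p-value reflects no more than how these libraries vary, which may be technical. A peak list holds no expression, so the level of TDP-43 could not be checked. Of 4 noradrenergic neuroblastoma genes (HAND2, GATA3, DBH and TH), 3 had a peak in every library and the remaining gene had none in any library. The median window coverage over the 4, that gene included, was 29.3% in shNC and 32.5% in shTDP43.

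Ribosomal protein genes are short, transcribed at high levels in nearly all cells, and spread over many chromosomes. Their start sites usually lie in CpG-rich DNA, and many of their transcripts begin with a run of pyrimidines, the terminal oligopyrimidine (TOP) tract, through which mTOR signalling controls their translation. 5hmC is known to be depleted at the starts of such active CpG-rich promoters and richer in the bodies of expressed genes and at enhancers. It can arise only where a cytosine is first methylated, which in mammals is mostly at CG.

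A RefSeq promoter entry (250 bases before to 50 after the start, GRCh38.p14) was matched for 32 of the 40 members. No entry was matched for RPL5, RPL7, RPL8, RPL23, RPL30, RPL37, RPS2 and RPS20. Because no library had a peak on any of these promoters, 4 of them are printed, with each CG in capitals. They are the promoter of RPS4X, the member with the clearest difference between the groups (chrX:72277199-72277498, minus strand, 20 CG), of RPS7, the member with the highest peak coverage (chr2:3575010-3575309, plus strand, 26 CG), of RPS14, a member with no peak anywhere in its window (chr5:150449690-150449989, minus strand, 27 CG), and of RPS27A, a promoter with few CG (chr2:55231653-55231952, plus strand, 6 CG).
RPS4X: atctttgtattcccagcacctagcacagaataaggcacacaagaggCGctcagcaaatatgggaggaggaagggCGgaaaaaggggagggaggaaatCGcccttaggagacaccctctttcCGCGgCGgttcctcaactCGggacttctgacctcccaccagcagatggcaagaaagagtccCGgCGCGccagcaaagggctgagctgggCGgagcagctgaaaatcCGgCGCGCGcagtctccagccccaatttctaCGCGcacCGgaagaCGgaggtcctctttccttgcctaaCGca
RPS7: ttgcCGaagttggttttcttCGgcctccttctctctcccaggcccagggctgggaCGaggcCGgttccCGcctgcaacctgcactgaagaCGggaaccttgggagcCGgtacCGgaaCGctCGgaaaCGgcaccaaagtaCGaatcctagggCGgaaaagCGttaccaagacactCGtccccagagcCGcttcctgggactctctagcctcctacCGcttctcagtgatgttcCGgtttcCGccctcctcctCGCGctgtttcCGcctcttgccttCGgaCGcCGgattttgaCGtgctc
RPS14: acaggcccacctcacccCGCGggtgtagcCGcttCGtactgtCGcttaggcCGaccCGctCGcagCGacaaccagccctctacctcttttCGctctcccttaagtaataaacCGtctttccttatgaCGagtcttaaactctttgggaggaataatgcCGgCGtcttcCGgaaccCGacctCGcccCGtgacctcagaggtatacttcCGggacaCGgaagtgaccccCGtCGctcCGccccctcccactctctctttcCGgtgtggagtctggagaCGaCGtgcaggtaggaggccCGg
RPS27A: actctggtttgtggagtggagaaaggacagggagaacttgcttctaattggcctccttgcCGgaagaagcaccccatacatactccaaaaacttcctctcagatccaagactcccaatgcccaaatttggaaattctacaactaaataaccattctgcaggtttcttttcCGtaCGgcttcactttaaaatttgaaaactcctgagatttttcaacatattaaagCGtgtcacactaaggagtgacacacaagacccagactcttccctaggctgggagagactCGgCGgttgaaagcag

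Over the 32 promoters the median number of CG was 21, from 2 in RPL6 to 37 in RPL13, against 22 over the 15811 protein-coding promoters in the table. The listed RPL6 start lies 7393 bases inside the end of the gene's span, so its entry is not at the outermost start. Their median GC content was 57.0%, against 62.7% over all. None of the 32 carried a peak in any of the 6 libraries. Over all 15811 promoters, 10.5% carried a peak in at least 1 library and 3.38% in all 6. The share in single libraries was 7.99%, 7.60% and 6.82% in shNC and 6.15%, 5.19% and 5.70% in shTDP43, so it was lower in each knockdown library than in any control. Splitting promoters by CG number, a split chosen after the data were seen, left none of 18 members with at least 20 CG carrying a peak against 7.67% of 8797 promoters, and none of 14 members under 20 CG against 14.0% of 7014.

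Of the 32 members, 6 (18.8%) had the letters CTTTCC on the gene's own strand within 15 bases of the listed start, against 1.51% of all promoters. Their start-site stretches are printed because this pyrimidine run was more frequent among the members than among all promoters. Capitals mark CTTTCC, and the listed start is the base after the first 15. The stretches lie at chr9:133348203-133348232 (RPL7A, plus), chr19:48619164-48619193 (RPL18, minus), chr11:75399503-75399532 (RPS3, plus), chr5:150449725-150449754 (RPS14, minus), chr19:39435935-39435964 (RPS16, minus) and chr19:41860240-41860269 (RPS19, plus).
RPL7A: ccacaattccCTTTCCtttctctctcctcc
RPL18: accccagcccgttctctCTTTCCggacctg
RPS3: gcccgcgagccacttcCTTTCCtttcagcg
RPS14: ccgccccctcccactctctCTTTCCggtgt
RPS16: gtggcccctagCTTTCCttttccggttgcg
RPS19: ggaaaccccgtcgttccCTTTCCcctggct

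The longer run CTCTTTCC in the same place was found in 2 members (6.25%) and in 0.234% of all promoters. Searched on both strands of the whole 300 bases, the ETS-type letters CCGGAAG were in 12 members (37.5%) against 14.1% of all promoters. The YY1-type letters AAGATGGC were in 4 (12.5%) against 3.86%. The Sp1-type letters GGGCGG were in 20 (62.5%) against 58.3%, and TATAAA was in 3 (9.38%) against 9.75%. These are matches of letters only, and a motif's absence says only that those letters are not in the window.

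The empty stretch was wider than the promoter. Between 250 bases before and 1000 bases after the start, none of the 32 members had a peak in any library. Over all protein-coding genes 21.6% had one. This stretch was chosen after the data were seen and lies within the members' own gap. Their lack of peaks in it therefore follows from how it was cut, and the comparison is no test. The peak edge closest to a start on the upstream side lay 258 bases away, at RPL11, and the closest on the downstream side lay 1155 bases away, at RPL35A. No peak crossed a start. In the 500 bases on either side of the start, peaks covered 0.738% ± 0.274 of bases in shNC and 0.173% ± 0.167 in shTDP43 (SD, n = 3), against 4.91% ± 0.404 and 3.74% ± 0.330 over all genes. Upstream, coverage from 2 kb to 500 bases before the start was 4.60% ± 0.702 in shNC and 3.12% ± 0.874 in shTDP43, against 7.54% ± 0.552 and 6.00% ± 0.672 over all genes. From 5 to 2 kb before it, members (2.89% ± 0.357 and 2.70% ± 0.613) and all genes (3.00% ± 0.345 and 2.69% ± 0.281) were alike within the spread of the libraries. From 500 to 2000 bases downstream, coverage was 4.52% ± 0.440 in shNC and 3.08% ± 1.72 in shTDP43, against 7.49% ± 0.728 and 6.07% ± 0.641. From 2 to 5 kb downstream members had 8.11% ± 2.23 in shNC and 6.86% ± 2.78 in shTDP43, against 5.19% ± 0.779 and 4.97% ± 0.599. Members were above all genes there in 5 of 6 libraries, but in shTDP43 2 they had 3.70% against 4.33%, and in shTDP43 the gap was within the spread of the libraries. Members are short, so this last interval often reaches past the end of the gene. The median member was 5644.5 bases long, from 2380 (RPL10A) to 22944 (RPS24), against a median of 24190 over all genes.

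**Figure D1:**
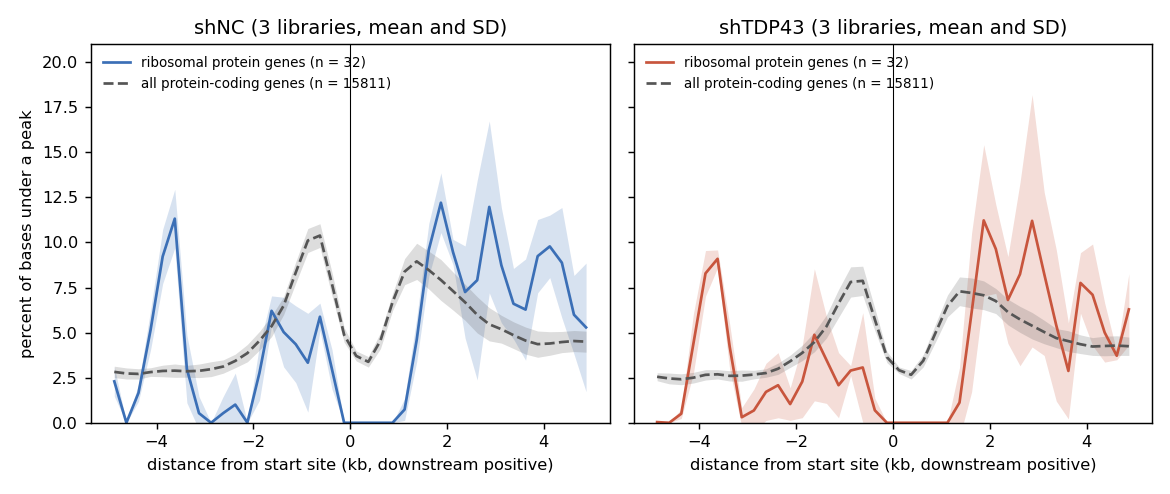
Percent of bases under a called 5hmC peak (y axis) against distance from the start site in kb (x axis, downstream positive), for 32 ribosomal protein genes and all protein-coding genes, with shNC and shTDP43 in separate panels. Lines are means and bands SDs of 3 libraries. The members' line lies near 0 around the start and is above the line of all genes over most of the stretch from about 2 kb downstream. The rise near 4 kb upstream comes mostly from few regions: those of RPS7, RPL18, RPS6 and RPL15 had peaks in all 6 libraries, and RPL19 and RPL4 had peaks there in 2 and 1 controls.

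The 6 lists held between 117949 and 157157 peaks each, covering 78.2 to 111 Mb. The count was 134024 ± 20535 in shNC and 130946 ± 11402 in shTDP43. The shNC 2 library had the most peaks and the widest coverage and shTDP43 2 the narrowest coverage. The depth is unknown, since the sources used here give no read totals, and a window without a called peak may still hold 5hmC. In each list the smallest −log10 q was near 1.30, but peaks close to that limit had a median fold of 2.30 ± 0.148 in shNC and 2.46 ± 0.135 in shTDP43, so the lists do not start from exactly the same enrichment. A peak lost in some cells and a peak weakened in all cells cannot be told apart in these pooled-cell lists.

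Away from the start, most ribosomal protein genes had 5hmC peaks near them. At least 1 library had a peak in the window of 37 of 40 members (92.5%), against 75.2% of all protein-coding genes and 65.2% of the 8162 genes in the members' length range. All 6 libraries had one in 20 members (50.0%, against 56.2% of all genes and 40.1% of genes in that length range). RPL9, RPS14 and RPS16 had none in any library. The median member was covered over 4.90% of its window in shNC and 3.79% in shTDP43, against 2.29% and 1.86% over all genes and 1.63% and 0.96% over genes of the members' length range. The median over members was 4.77%, 4.77% and 4.39% in the 3 shNC libraries and 3.79%, 3.54% and 4.49% in the 3 shTDP43 libraries, so shTDP43 3 lay above 1 control.

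The peaks lay both beside and inside these genes, roughly by length: flanks made up 58.6% of the windows' length (400 kb) and gene bodies 41.4% (283 kb). Of 103 merged regions (peaks of the 6 lists joined where they touch) in member windows, 57 (55.3%) were flanking, 40 (38.8%) lay inside the gene and 6 (5.83%) crossed a gene end. Among the 48 flanking regions of genes with a known start, 30 (62.5%) were downstream and 18 (37.5%) upstream. This split was not computed over all genes, so it cannot be read as particular to the members. Regions of which only an edge reaches the window are counted too. Per library, the flanking share of peaks was 55.4% ± 3.32 in shNC and 58.0% ± 2.57 in shTDP43. A peak lay inside the gene in any library in 25 members (62.5%, against 64.9% of all genes and 48.2% of genes in the members' length range), and in the flanks in 34 (85.0%, against 57.6% and 53.6%). In 12 members the peaks were in the flanks only, in 3 (RPL14, RPL32 and RPS3) inside only, and in 22 in both. The 15 members with nothing inside were RPL6, RPL7, RPL7A, RPL9, RPL18, RPL19, RPL23, RPL27, RPL34, RPS9, RPS13, RPS14, RPS16, RPS19 and RPS27A.

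Many of these windows also held other genes. Another protein-coding gene lay in the window of 27 members, and 6 members were themselves overlapped by one: RPL5 by DIPK1A, RPL15 by NKIRAS1, RPL24 by LOC124906262, RPL32 by CAND2, RPL35A by DRC9 and RPS27A by CLHC1. Of the 57 flanking regions, 25 lay in another protein-coding gene, as did 6 of the 40 inside regions. For RPL7A, RPL18, RPL19, RPL35A and RPS27A all the covered bases lay in other genes' bodies (a check added after the data were seen). Coverage outside them was 0 in every library, though only 39 bases of the RPL35A window lay outside. RPL5 had coverage outside another gene only in shTDP43 1. RPL15 and RPL24 had no base outside another gene. Small nucleolar RNAs, which guide modification of ribosomal RNA and are often encoded in introns of these genes, numbered 31 in 14 members, with 4 each in RPL3, RPL4, RPL7A and RPL13A. A peak inside the gene was found in 11 of those 14 and in 14 of the other 26. This contrast was not tested and takes no account of gene length.

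**Figure D2:**
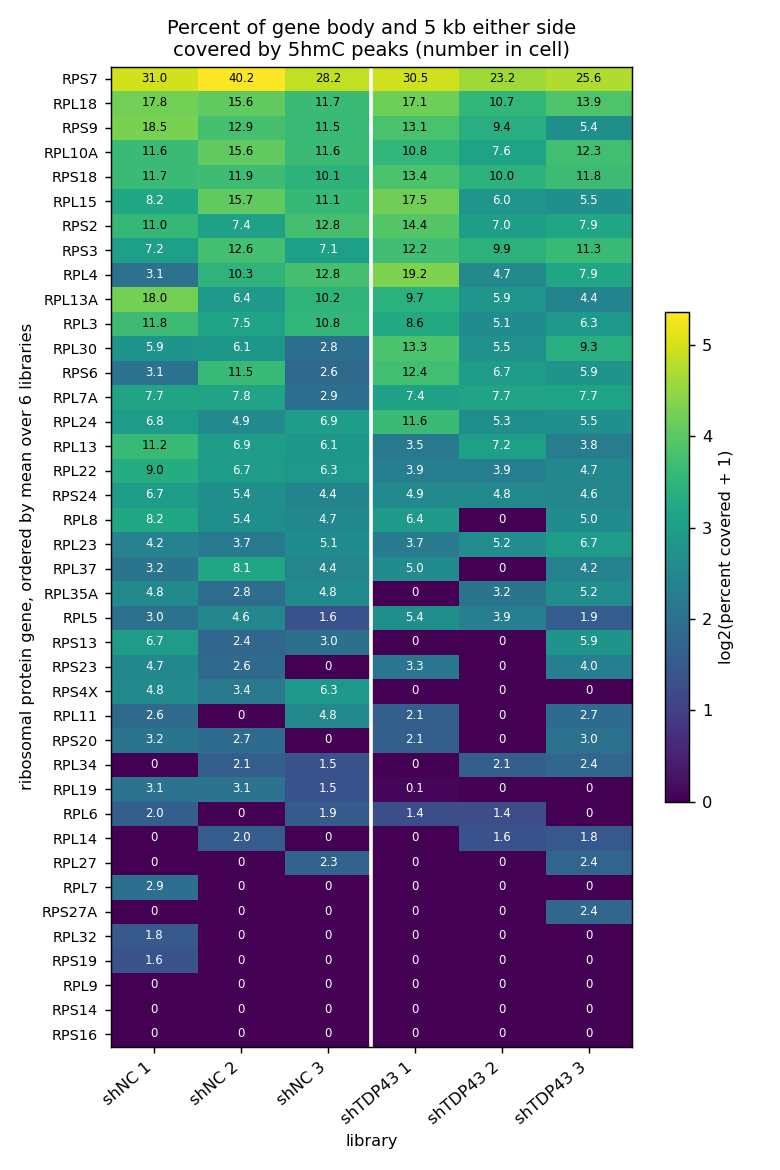
Percent of the window covered by peaks (number in each cell, colour on a log2 scale) for the 40 ribosomal protein genes (rows, ordered by mean) in the 6 libraries (columns, shNC left of the white line). RPS7 is highest in every library, and RPL9, RPS14 and RPS16 are at 0 in all 6.

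The best-covered member was RPS7, a small-subunit protein whose gene is mutated in some families with Diamond-Blackfan anaemia, an inherited red-cell failure. Its window (gene at chr2:3575260-3580920) was covered over 31.0%, 40.2% and 28.2% in shNC and 30.5%, 23.2% and 25.6% in shTDP43. That placed it at rank 114 of 19970 protein-coding genes, and no other protein-coding gene lay in its window. The groups overlapped, and the fitted difference on the log2(percent + 1) scale was −0.18 (SE 0.10, adjusted p = 0.425, limma with Benjamini-Hochberg adjustment over all genes tested). Inside the gene, coverage was 29.3%, 45.2% and 25.5% in shNC and 30.1%, 6.09% and 9.26% in shTDP43. Here shTDP43 1 lay among the controls and the other knockdown libraries below them, and the difference of −1.23 (SE 0.49) missed the threshold (limma adjusted p = 0.376). Without shTDP43 1 it was −1.81 and passed (limma adjusted p = 0.0291), and with only peaks of −log10 q of at least 5 it was 0.61. In the flanks the values were 31.9%, 37.4% and 29.8% in shNC and 30.7%, 32.8% and 34.9% in shTDP43, which overlap. The 4 regions of RPS7 with a peak in all 6 libraries spanned chr2:3571000-3571810 upstream, chr2:3576717-3577731 inside, and chr2:3581717-3583714 and chr2:3585261-3587851 downstream.

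RPL18, a large-subunit protein, came next, at chr19:48615331-48619178. Its window coverage was 17.8%, 15.6% and 11.7% in shNC and 17.1%, 10.7% and 13.9% in shTDP43. The libraries were interleaved, with a fitted difference of 0.02 (limma adjusted p = 0.971). Its 2 regions, each present in all 6 libraries, lay in FAM83E downstream and SPHK2 upstream, with none in RPL18 itself. RPS9, which binds early in assembly of the small subunit, had 18.5%, 12.9% and 11.5% in shNC and 13.1%, 9.35% and 5.38% in shTDP43, all from 1 downstream region of 3539 bases at chr19:54208072-54211610. The groups overlapped through shTDP43 1 (difference −0.49, limma adjusted p = 0.496).

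RPL10A, a protein of the mobile stalk beside the site where spent tRNA leaves, had window coverages of 11.6%, 15.6% and 11.6% in shNC and 10.8%, 7.60% and 12.3% in shTDP43 (difference −0.19, limma adjusted p = 0.575). RPS18, a protein of the small subunit's head, had 11.7%, 11.9% and 10.1% in shNC and 13.4%, 10.0% and 11.8% in shTDP43 (0.18, limma adjusted p = 0.455). For both genes the libraries of the groups overlapped. RPL15, also a Diamond-Blackfan gene, had 8.16%, 15.7% and 11.1% in shNC and 17.5%, 5.96% and 5.47% in shTDP43. The knockdown libraries of RPL15 held both its highest and its lowest values, and the window lay wholly within NKIRAS1 (limma adjusted p = 0.783).

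RPS24, a small-subunit protein and Diamond-Blackfan gene, was chosen after its values were seen, because it held the strongest member peak. By the authors' q-values, the peak inside it at chr10:78043294-78044254 had the highest −log10 q of any member peak in 5 of the 6 lists. In shTDP43 3 the strongest member peak was instead one downstream of RPS7. Coverage of the RPS24 window was 6.71%, 5.42% and 4.36% in shNC and 4.85%, 4.84% and 4.60% in shTDP43, with the knockdown values inside the control range. Coverage does not measure peak strength. The −log10 q of the peak was 71.8, 127 and 73.2 in shNC and 31.5, 33.4 and 32.3 in shTDP43. These values come from lists called separately at unknown depth, and their difference was not tested. The peak was picked by these same values, and other member regions with a peak in all 6 libraries differed in both directions. Inside RPL13 the −log10 q was 43.5, 33.5 and 31.4 in shNC and 15.4, 14.6 and 7.49 in shTDP43. Downstream of RPL18 it was 9.18, 9.44 and 9.77 in shNC and 15.7, 12.7 and 17.6 in shTDP43.

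When the groups were compared, 31 members passed the filter of a mean of at least 1%, and 1 of them, RPS4X, was lower in shTDP43 and none higher. Over all 12421 genes tested the share called lower was 0.66% (82 genes) and the share called higher 0.193% (24 genes). The 9 members not tested were RPL9, RPS14 and RPS16, which had no peak, and RPL7, RPL14, RPL27, RPL32, RPS19 and RPS27A, which fell under the filter. At an unadjusted p under 0.05, 5 of the 31 (16.1%) and 15.0% of all genes tested passed. The median fitted difference was −0.06 over the tested members and 0.01 over all genes tested. Without fitting, 24 members had a lower mean in shTDP43 and 13 a higher one. The lower share, 64.9% of members with a peak, was close to the 66.5% of all genes with a peak.

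RPS4X, the X-linked gene of a small-subunit protein (chrX:72272042-72277248), was covered over 4.83%, 3.43% and 6.31% of its window in shNC and 0%, 0% and 0% in shTDP43. All 3 controls had a peak and no knockdown library did. The fitted difference was −2.39 (SE 0.30, limma adjusted p = 0.0314). Inside the gene the values were 6.84%, 10.0% and 18.4% in shNC, again against 0% in each knockdown library (−3.46, SE 0.37, limma adjusted p = 0.011). With a whole group at 0, a fitted difference depends on the added constant and is no bound. Of the 106 genes called in the window, 71 likewise had a group all at 0. No other protein-coding gene lay in this window.

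Coverage inside RPS4X came from 1 region, chrX:72274060-72275239, centred 2599 bases after the start. The shNC peaks there had −log10 q of 1.64, 5.09 and 4.80 in the authors' lists, against a smallest value near 1.30. The library shNC 1 also had a downstream peak at chrX:72270771-72271148, with −log10 q of 12.5. Keeping only peaks with −log10 q of at least 5 left 1 control with a peak inside the gene, where the fitted difference was then −1.02 (limma adjusted p = 0.628), and the window fell under the filter and was not tested. With equal numbers of peaks per list it was −2.32 (limma adjusted p = 0.379). The window call was lost without each library in turn (limma adjusted p between 0.0517 and 0.168), with differences from −2.65 to −2.16. The gene-body call held in all 6 such fits (limma adjusted p from 0.0155 to 0.0399). It was lost with an added constant of 4 and with replicate number added to the fit (limma adjusted p = 0.0529 and 0.0748). Of 17 alternative settings that tested each, 7 called the window and 13 the gene body.

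**Figure D3:**
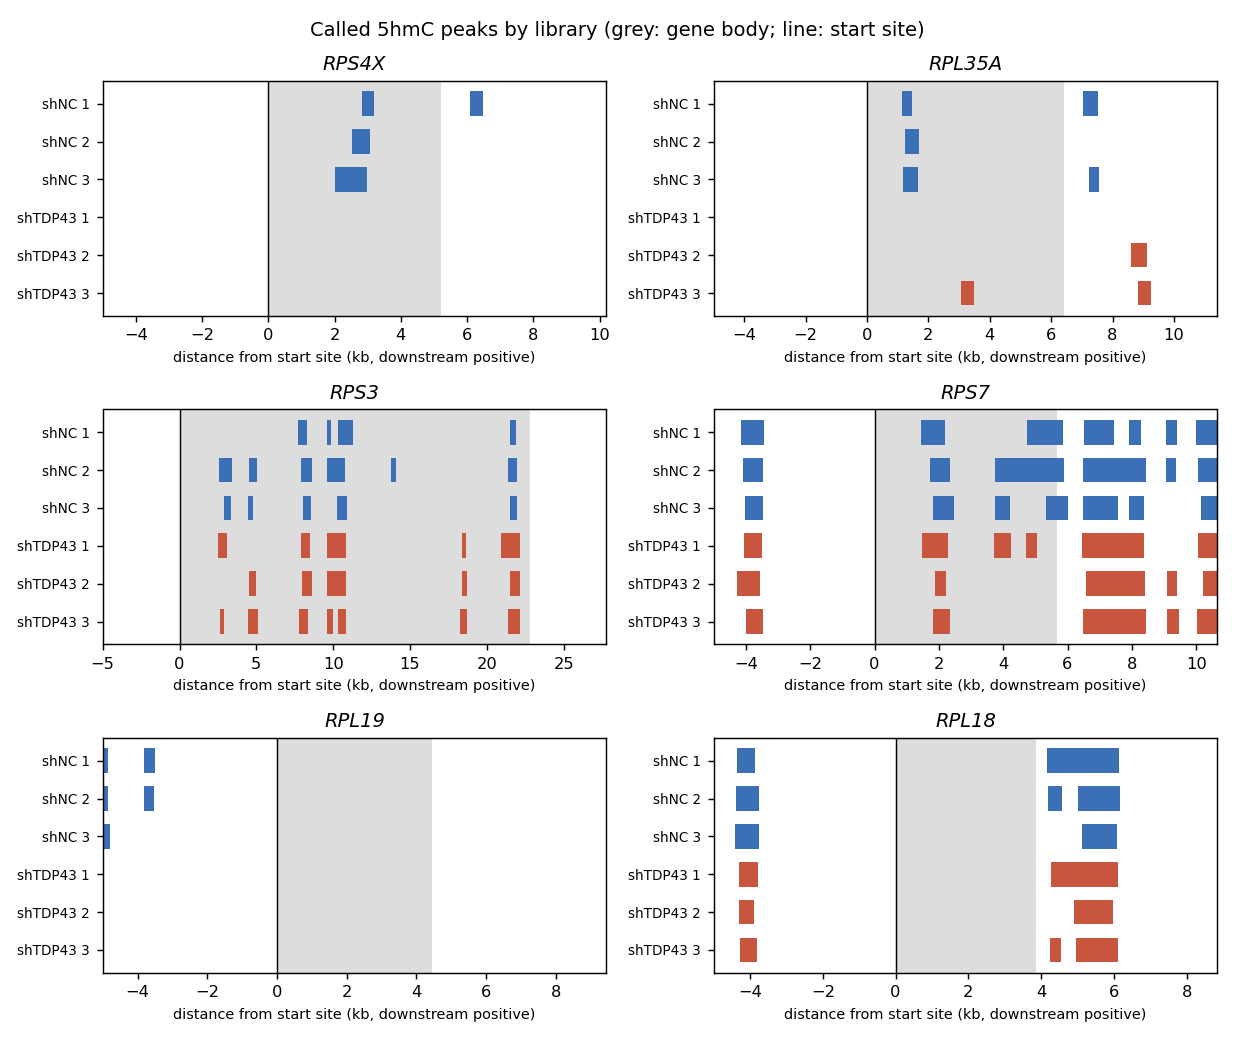
Called 5hmC peaks (bars) in each library against distance from the start site in kb (x axis, downstream positive) for 6 ribosomal protein genes, with the gene body in grey and shNC in blue, shTDP43 in red. RPS4X has peaks in the 3 control libraries and in no knockdown library, and the starts of all 6 genes are free of peaks.

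The window values of 2 other members did not overlap between the groups, both lower in shTDP43. Among all genes tested, 20.5% were separated in that direction and 2.87% in the other, so the members' share, 3 of 31 lower and 0 higher, did not exceed the background. RPL19, a large-subunit protein, had 3.15%, 3.12% and 1.54% in shNC and 0.0623%, 0% and 0% in shTDP43. The controls were all above 1% and the knockdown libraries at or near 0, with a fitted difference of −1.65 (SE 0.29) that did not pass (limma adjusted p = 0.0614). It passed in 3 of 15 alternative settings (adjusted p between 0.0158 and 0.261). The peaks lay in the upstream neighbour CACNB1, at chr17:39194452-39195504 and chr17:39196457-39196776, and RPL19 itself had none. The first of these regions is cut by the window's edge. In it shTDP43 1 also had a called peak (−log10 q of 4.15), with its summit outside the window. The summit of 1 of the 2 peaks of shNC 2 lay outside too. With flanks of 10 kb the window difference was −1.44 (limma adjusted p = 0.261). RPL22, an RNA-binding large-subunit protein whose gene is lost in some T-cell leukaemias, had 9.04%, 6.70% and 6.27% in shNC and 3.89%, 3.90% and 4.71% in shTDP43. The highest knockdown value lay below the lowest control, but the difference of −0.55 (SE 0.19) did not pass (limma adjusted p = 0.256).

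**Figure D4:**
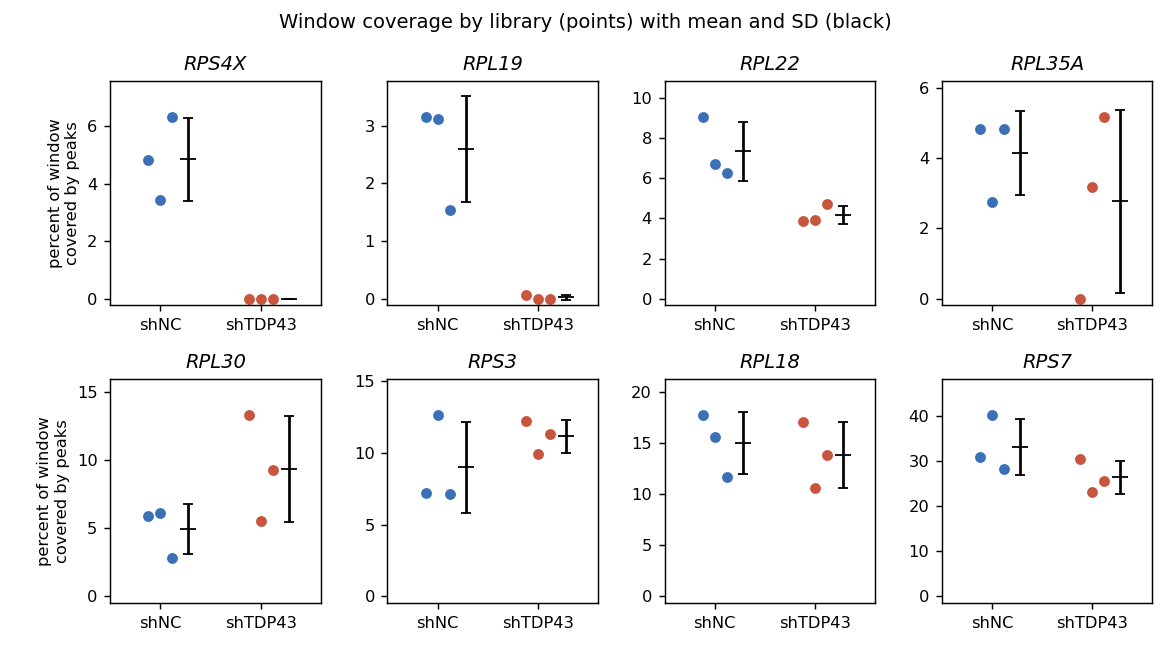
Percent of the window covered by peaks (y axis, from 0) in each library (points) with the group mean and SD (black), for 8 ribosomal protein genes in shNC and shTDP43 (3 libraries each). RPS4X, RPL19 and RPL22 show no overlap between the groups, and the other 5 genes overlap.

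Inside the gene 22 members were tested, and 1 was called lower (RPS4X) and none higher, where 0.728% of 10849 genes were called lower and 0.212% higher. The values of 1 member were separated upwards, against 3.33% of all genes, and of 1 downwards, against 18.3%. The first was RPL24, which forms a bridge between the subunits. It had 6.79%, 7.89% and 5.99% in shNC and 9.43%, 8.08% and 9.28% in shTDP43. Every knockdown library was above every control, by a margin that was small for shTDP43 2, and the difference of 0.45 (SE 0.10) did not pass (limma adjusted p = 0.166).

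In the flanks no gene of 9914 was called in either direction (0.0%), although 1375 had an unadjusted p under 0.05 in limma. Among 27 members tested, 4 were separated with shTDP43 lower (19.7% of all genes) and none higher (3.59%). They were RPL22, RPL19, RPL3 and RPL13A. RPL3, which lies next to the peptidyl transferase centre, had flank coverages of 19.7%, 12.6% and 18.0% in shNC and 8.82%, 8.59% and 7.33% in shTDP43 (−0.71, SE 0.23, limma adjusted p = 0.226). Inside RPL3 the pattern was the other way round, with 0% in each control and 8.19%, 0% and 4.72% in shTDP43 (2.01, limma adjusted p = 0.371), so the window as a whole overlapped between groups. RPL13A, also part of a complex that silences inflammatory transcripts, had flank coverages of 14.1%, 9.43% and 15.0% in shNC and 7.06%, 5.48% and 6.44% in shTDP43 (−0.68, SE 0.23, limma adjusted p = 0.263). For both genes the controls lay above the knockdown libraries without overlap. RPL24, RPL3 and RPL13A are named after their values were seen.

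**Figure D5:**
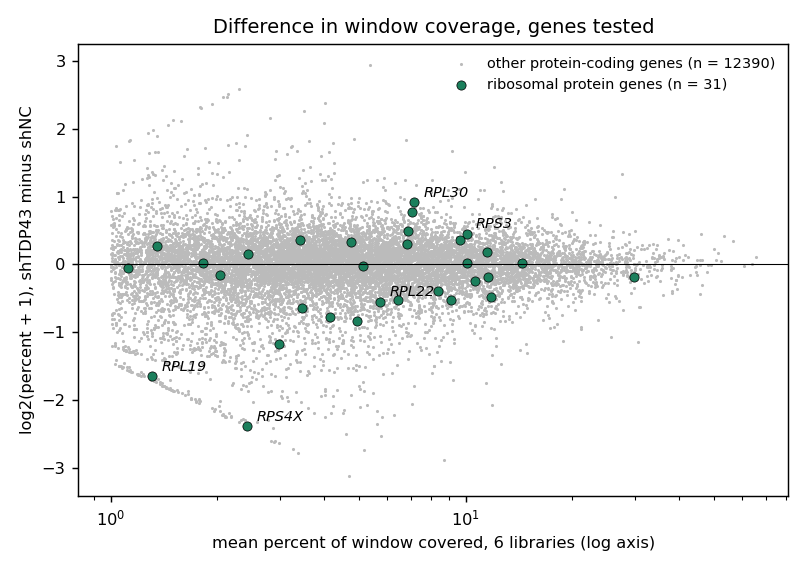
Fitted difference in window coverage, shTDP43 minus shNC on the log2(percent + 1) scale (y axis), against mean percent of the window covered over 6 libraries (log x axis), for the 31 ribosomal protein genes tested (green) and the other 12390 genes tested (grey). RPS4X, at −2.39, and RPL19, at −1.65, lie lowest among the members.

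Region by region, 29 of the 103 merged regions in member windows had a peak in all 6 libraries (28.2%, against 36.4% over regions in all protein-coding windows). Of the flanking regions 33.3% did so, and of the inside regions 25.0%. In these counts a peak may lie anywhere in a region, also past the window's edge. For the flanking region of RPL13, counted in all 6 libraries, only shTDP43 1 had covered bases in the window (0.45% of the flanks). Of the 101 regions with at least 100 bases in a window, 27 had a peak in all 6 libraries. Only 2 regions (1.94%) had a peak in all controls and no knockdown library, where 1.97% of all 200818 merged regions did. Only 1 (0.971%) had the opposite pattern, against 1.06%. Both shares were close to the background.

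The control-only regions were the one in RPS4X and chr3:197951345-197951888 in RPL35A, a large-subunit protein and Diamond-Blackfan gene. The RPL35A region was 544 bases long, centred 1426 bases after the start, and had −log10 q of 4.65, 1.39 and 5.82. This region also lay in DRC9, which overlaps RPL35A. Inside RPL35A, coverage was 4.69%, 7.05% and 7.57% in shNC and 0%, 0% and 6.37% in shTDP43. The remaining knockdown value came from another region of the gene, in shTDP43 3. The difference of −1.80 did not pass (limma adjusted p = 0.399). Without shTDP43 3 it was −2.75 and passed (limma adjusted p = 0.0172), and it was 0.066 when only peaks with −log10 q of at least 5 were kept. Over the window the values were 4.84%, 2.76% and 4.83% in shNC and 0%, 3.17% and 5.16% in shTDP43, and they overlapped.

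The knockdown-only region was chr11:75417801-75418243, 443 bases inside RPS3 and 18504 bases after its start. RPS3 sits where mRNA enters the ribosome and also has DNA repair activity. The knockdown peaks had −log10 q of 8.65, 9.90 and 10.1. Window coverage of RPS3 was 7.19%, 12.6% and 7.14% in shNC and 12.2%, 9.93% and 11.3% in shTDP43. The control shNC 2, the list with the most peaks, lay above all knockdown libraries and the other controls below them (0.45, SE 0.16, limma adjusted p = 0.274). RPL30, a large-subunit protein, had the highest fitted window difference among the members tested and was named after its values were seen. Its window coverage was 5.89%, 6.11% and 2.84% in shNC and 13.3%, 5.53% and 9.30% in shTDP43. Because shTDP43 2 lay among the controls the groups overlapped (0.92, SE 0.29, limma adjusted p = 0.235).

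By subunit, the 25 RPL members had a median window coverage of 4.95% in shNC and 3.82% in shTDP43, with 20 tested and none called. The 15 RPS members had 4.86% and 2.43%, with 11 tested and 1 called lower. Their medians by library overlapped, at 4.83%, 3.43% and 2.95% in shNC and 3.31%, 0% and 4.60% in shTDP43. Among the RPS members tested the median fitted difference was 0.01, with 6 positive and 5 negative. The 9 Diamond-Blackfan genes (RPL5, RPL11, RPL15, RPL18, RPL27, RPL35A, RPS7, RPS19 and RPS24) had medians of 4.14% and 3.75%, with 7 tested and none called. RPL5, RPL11 and RPL23, whose free proteins bind MDM2 and so stabilise p53 when ribosome assembly fails, had a median of 3.07% in shNC and 3.75% in shTDP43. RPL11 had 2.62%, 0% and 4.78% in shNC and 2.09%, 0% and 2.70% in shTDP43. RPL5 had 3.04%, 4.61% and 1.57% against 5.41%, 3.93% and 1.93%, and RPL23 had 4.19%, 3.71% and 5.09% against 3.68%, 5.19% and 6.71%. In all 3 genes the groups overlapped.

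The other genes of the translation machinery were compared as lists. Of 45 other cytosolic ribosomal protein genes, 38 had a peak in the window, 32 were tested, and 2, RPL12 and RPL37A, were called lower and none higher, with a median difference of −0.04. Over all genes tested 0.66% were called lower. RPL12 (chr9:127447674-127451406), whose protein sits at the base of the stalk that recruits elongation factors, had 7.62%, 3.62% and 3.43% in shNC (−2.36, SE 0.33, limma adjusted p = 0.0351). RPL37A (chr2:216498844-216504086) had 1.95%, 3.21% and 2.84% in shNC (−1.73, SE 0.27, limma adjusted p = 0.0471). Both were at 0% in each knockdown library, as RPS4X was, so these fitted differences are no bounds either. Neither call held in a fit that left out 1 library (limma adjusted p from 0.0684 to 0.168 for RPL12 in 6 fits and from 0.101 to 0.241 for RPL37A in 5). Under the other settings that tested them, RPL12 was called in 6 of 11 and RPL37A in 5 of 10.

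None of the 25 ribosome biogenesis factors tested (of 36 listed, median difference 0.04), the 27 translation factors tested (of 34, −0.02) or the 39 mitochondrial ribosomal protein genes tested (of 77, 0.01) was called by limma. The mitochondrial ribosomal protein genes had the lowest median window coverage of these lists, 1.15% in shNC and 0.68% in shTDP43. The other cytosolic ribosomal protein genes had 3.73% and 3.78%, the biogenesis factors 2.76% and 1.88%, and the translation factors 3.48% and 3.04%.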

How the data were processed

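The files were the authors' MACS2-format peak lists, 1 per library, so peaks were called separately in each library. Bowtie2 2.4.4, SAMtools, MACS2 2.2.6 and hg38 are named in the submitters' processing notes, with no settings. Whether the input library served as control is not given in the sources used here, and that library was not analysed here. The lists have no header and were read in narrowPeak order: the deposited score, the fold enrichment at the summit (a ratio to background), and −log10 p and −log10 q values. Coverage used positions only, and the deposited −log10 q served to rank or filter peaks.

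For each of 19970 RefSeq protein-coding genes (GRCh38.p14, the hg38 assembly), the percent of the window, gene body or both 5 kb flanks covered by peaks was computed per library (Python 3.11.15, pandas 2.3.3). limma 3.58.1 (empirical Bayes with trend, R 4.3.3) compared the groups on log2(percent + 1) for genes with a mean of at least 1%, after removing each library's median deviation, which was between −0.17 and 0.23. Benjamini-Hochberg adjustment ran over all genes tested, at 0.05. The fits were also run on simulated lists, in which library labels were shuffled separately within each merged region. Such lists lack the differences between whole libraries that the real ones have, and no result here rests on them. The members and lists were chosen with earlier results of these data known.

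Values in every library are given for members called in any fit, members whose window values did not overlap between groups, the 6 best-covered members and members with a region of 1 group only. Of the other lists, genes called in the window are named. Motifs and start-site intervals were chosen after the data were seen. No genome was used here, so regions were not assigned to exons or introns. Some listed genes are not reported here and were left out of the lists' counts and medians.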

Additional observations from a re-analysis of the deposited data

How the results depend on the processing

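The deposited lists set the limits: depth is unknown, a peak is present or absent, and 3 libraries a group gave few calls. Without one library at a time, the window gave 0 to 1 genes higher and 0 to 11 lower, with 0 members called, the gene body 11 to 47 higher and 70 to 117 lower, with 0 to 1 members higher and 1 to 2 lower, and the flanks 0. Of the member regions 91 to 103 remained in number, 28 to 32 in every library, 2 to 5 in shNC only and 1 to 4 in shTDP43 only. The mean of the library medians over members was 4.58% to 4.77% in shNC and 3.66% to 4.14% in shTDP43.

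Window calls (24 higher, 82 lower, 1 member lower) became 13 and 32 with a constant of 0.25, 1 and 0 with a mean of at least 3%, and 0 and 0 with flanks of 10 kb. Without centring 20 were higher and 181 lower. The members lower became 2 (RPS4X and RPL19) without the filter, without centring or without the variance trend. They became 0 with equal numbers of peaks, with summits per 10 kb and with flanks of 10 kb, and 0 with a mean of at least 3% or −log10 q of at least 5, where RPS4X fell under the filter and was not tested.

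Gene-body calls (23 higher, 79 lower, 1 member lower) became 10 and 47 with a mean of at least 3%. Without centring 122 were lower, with −log10 q of at least 5 also 122, with equal numbers of peaks 39 higher, and with summits 37 higher and 125 lower. No member was lower (0) with a constant of 4, with −log10 q of at least 5 or with equal numbers of peaks. With −log10 q of at least 5 the body difference of RPL35A turned from −1.80 to 0.066 and that of RPS7 from −1.23 to 0.61, as weaker peaks dropped out.

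Flank calls (0 and 0) became 2 higher and 1 lower with a constant of 4, 54 and 374 without centring, 1 and 1 with quantile normalization, 10 and 29 with −log10 q of at least 5, 10 and 21 with equal numbers of peaks, 95 and 389 with summits, and 57 and 292 without the variance trend. Among members 1 was then lower: RPL22 without centring, and RPL19 with summits or without the trend. The cause of these shifts was not tested.

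The mean of the library medians over members is a different value from the median over members of group means given above. In shNC this mean, 4.64%, became 3.35% with −log10 q of at least 5, 3.47% with equal numbers of peaks and 3.53% with flanks of 10 kb. In shTDP43 the same mean, 3.94%, became 1.96%, 3.14% and 3.12%, and 3.21% with flanks of 2 kb. Regions in every library fell from 29 to 19 with −log10 q of at least 5, and control-only regions from 2 to 1 there and to 1 with equal numbers of peaks.

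Deviations of same-numbered libraries from their group means had r across genes of −0.14, −0.06 and 0.00. Between differently numbered libraries r ran from −0.11 to 0.17. With 3 libraries a group these values cannot tell whether same-numbered libraries shared a culture or a day. With a replicate block the window gave 0 higher and 0 lower, with 0 members, and the gene body 5 and 28, with 0 members lower.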
